A study of Mus musculus with 4 samples.

Results

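The SOX genes encode transcription factors that share a DNA-binding HMG box, and 10 of them are described here, chosen by symbol from the 55487 genes of the deposited count table: Sox2, Sox4, Sox5, Sox6, Sox8, Sox9, Sox10, Sox11, Sox12 and Sox18. They were chosen with the values of these libraries known, so their levels are given as a description, without p-values. The libraries hold poly(A) RNA of AXT tumours. AXT is an osteosarcoma line of the mouse, obtained by overexpressing c-MYC in stromal cells of bone marrow. The group lacking the oxygen-regulated factor HIF-1alpha (genotype HIF-1alpha KO) consisted of 3 libraries, called c11, c15 and c22 in the table, and the control was 1 library of Mock AXT cells (genotype WT). The labels list the knockout lines as AXT1-1, AXT1-2 and AXT2, and the sources used here do not tie them to c11, c15 and c22. All cells had been embedded in matrigel and injected into C57BL/6scid mice, which lack mature lymphocytes, and tumours were taken at day 1. The labels do not say whether each line is 1 clone or how many mice gave a library.

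SOX factors bend DNA and usually act with partner factors on lineage genes. SOXC factors (Sox4, Sox11, Sox12) act in mesenchymal, neural and skeletal progenitors, and Sox9 of the SOXE group commits cells to cartilage, with the SOXD factors Sox5 and Sox6 as co-regulators. Osteoblasts and chondrocytes share progenitors that express Sox9. The SOXE factors Sox8 and Sox10 are known from neural crest and glia, Sox2 from pluripotent and neural progenitor cells, and Sox18 from endothelium.

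Depth was alike, with 12910058, 13193264 and 13081007 counts in c11, c15 and c22, against 12383719 in mock. A count of 0 allowed up to 0.232, 0.227 and 0.229 CPM (counts per 1000000 counts of the library) in these knockout libraries and up to 0.242 CPM in mock, taken at 3 counts and for counting error only. Hif1a, the targeted gene, had levels of 104, 98.7 and 22.3 CPM in c11, c15 and c22, against 107 CPM in mock. Gene-level counts of an edited gene do not show whether protein was made, so Hif1a RNA near the mock level in c11 and c15 neither backs nor contradicts their labels. Of 12 osteoblast markers, all passed the filter on low counts, and their summed level was 3450, 3657 and 8704 CPM in c11, c15 and c22, against 4195 CPM in mock. Most of each sum came from 2 collagen genes. Col1a1 had 1913, 1093 and 4700 CPM, against 862 CPM in mock, and Col1a2 had 1082, 1627 and 3398 CPM, against 2292 CPM. Of the 12 markers, 7 had every knockout library below mock. Host cells were present as well. Summed levels of 10 skeletal muscle markers were 5.34, 1.14 and 24.8 CPM in c11, c15 and c22, against 108 CPM in mock, and those of 6 erythroid markers were 1.63, 4.24 and 37.8 CPM against 109 CPM. Macrophage markers (8 genes) summed to 220, 296 and 386 CPM in c11, c15 and c22, against 712 CPM in mock. Fewer cells of a type and less RNA per cell cannot be told apart in such bulk samples.

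RefSeq promoter windows for GRCm38.p6, from 250 bases before to 50 bases after the start, were found for 7 of the 10 genes, and 4 are printed here. Sox11 and Sox6 were read in c11 and mock and had no count in c15 or c22, and Sox4 and Sox12 were read in every library. All 4 genes lie on the minus strand, and the windows run 5′ to 3′ along the gene. Capitals mark ACGTG or GCGTG on either strand, the core letters of the HIF binding motif.
Sox11, chr12:27342669-27342968: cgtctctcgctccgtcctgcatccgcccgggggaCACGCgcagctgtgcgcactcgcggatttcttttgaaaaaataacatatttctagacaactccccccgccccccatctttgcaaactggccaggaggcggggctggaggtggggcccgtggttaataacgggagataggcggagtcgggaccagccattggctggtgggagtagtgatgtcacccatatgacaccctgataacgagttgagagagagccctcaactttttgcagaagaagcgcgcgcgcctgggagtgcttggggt
Sox6, chr7:116038695-116038994: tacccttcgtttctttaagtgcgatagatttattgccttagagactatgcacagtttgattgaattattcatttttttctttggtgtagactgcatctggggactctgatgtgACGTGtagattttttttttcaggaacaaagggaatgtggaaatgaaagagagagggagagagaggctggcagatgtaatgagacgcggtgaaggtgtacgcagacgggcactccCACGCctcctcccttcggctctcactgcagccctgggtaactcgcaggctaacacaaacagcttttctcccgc
Sox4, chr13:28953650-28953949: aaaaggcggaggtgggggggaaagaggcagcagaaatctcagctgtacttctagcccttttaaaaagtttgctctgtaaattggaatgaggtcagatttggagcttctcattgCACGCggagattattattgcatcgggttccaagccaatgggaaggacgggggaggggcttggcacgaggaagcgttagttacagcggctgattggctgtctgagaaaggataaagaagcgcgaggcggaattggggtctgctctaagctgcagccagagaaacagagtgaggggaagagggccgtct
Sox12, chr2:152397997-152398296: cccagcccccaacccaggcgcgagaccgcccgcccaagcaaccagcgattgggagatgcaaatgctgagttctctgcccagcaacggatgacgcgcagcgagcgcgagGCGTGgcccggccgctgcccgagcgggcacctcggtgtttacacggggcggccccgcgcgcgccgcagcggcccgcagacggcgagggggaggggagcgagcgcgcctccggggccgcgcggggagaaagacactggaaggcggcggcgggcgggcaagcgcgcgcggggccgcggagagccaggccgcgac
The Sox6 window is the outermost of 6 RefSeq windows of that gene, and its start lies 52 bases from the start in the deposited annotation. The Sox11 start lies 144 bases from it, the Sox4 start 14 bases and the Sox12 start 17 bases. Each of the 4 windows holds the core, Sox6 as 2 matches and the others as 1 match. By gene, 6 of the 7 have it in at least 1 window, Sox2 being without it, against 46.7% of the 27025 genes with a window. The only Sox5 window, counted among these 6, is internal to the gene, with its start 834871 bases from the deposited start. The Sox2 start lies 410 bases from the deposited start. By window, 6 of 12 hold the core, against 43.8% of all 32851 windows, where 5 of the windows without it are internal to Sox6. No test was made of these shares. The window of Sox8 holds CACGTG, a sequence that contains ACGTG on both strands and is also the E-box bound by MYC, present in 7.15% of all windows. A SOX core motif, AACAAT on either strand, was in 1 of the 12 windows, an internal Sox6 window, and in 10.7% of all windows. A match describes the letters and does not show that a factor binds there.

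The SOX genes did not lie on 1 side of mock in the knockout libraries. In c11, Sox4, Sox5, Sox6, Sox9, Sox11 and Sox12 were at their highest, while in c15 and c22 Sox11 and Sox6 had 0 counts. Together the 10 genes took 523, 133 and 220 CPM in the knockout libraries c11, c15 and c22, against 245 CPM in mock. The knockout libraries thus lay on both sides of mock. Sox4 and Sox12 made up 66.8% of these counts in c11, 95.1% in c15 and 92.1% in c22, against 94.0% in mock. Counts were found for 7 of the 10 genes in c11, 6 in c15 and 5 in c22, against 8 in mock, and for 4 genes in every library.

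**Figure D1:**
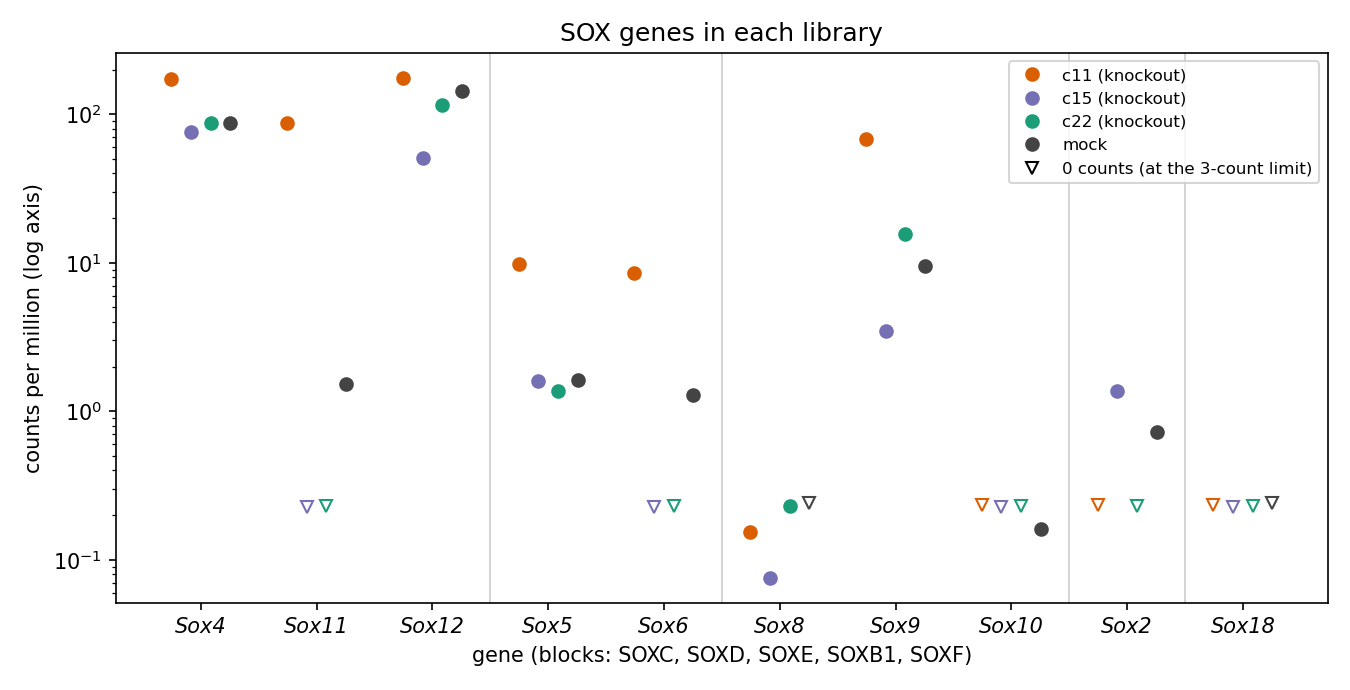
CPM (log axis) of the 10 SOX genes, 1 point per library, with the knockout libraries c11, c15 and c22 left of mock. Open triangles mark 0 counts, drawn at the limit of 3 counts; c11 is the highest point for Sox4, Sox11, Sox12, Sox5, Sox6 and Sox9.

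**Figure D2:**
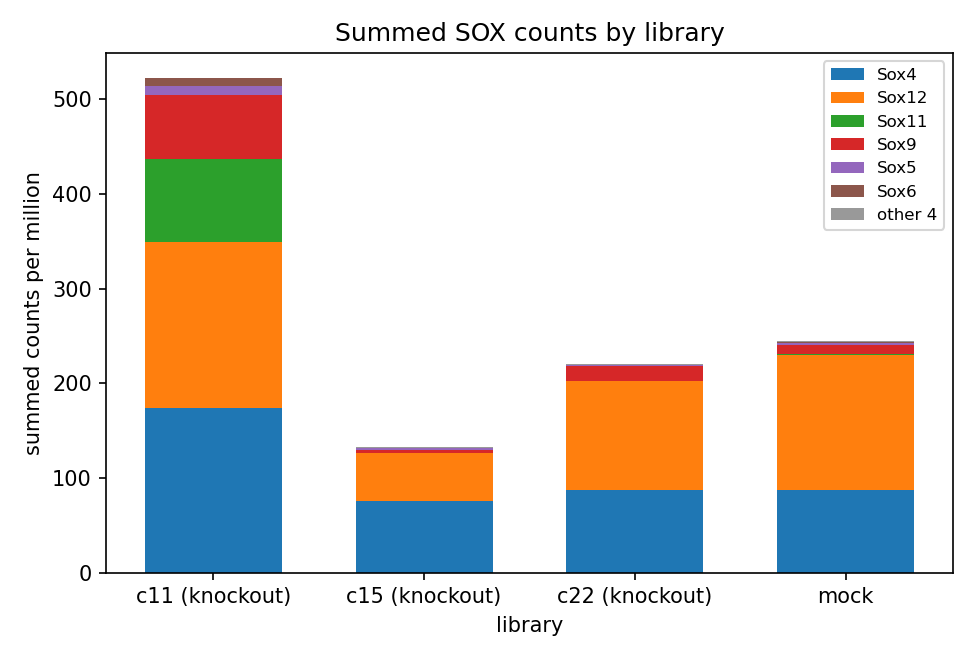
Summed CPM of the SOX genes in each library, stacked by gene. The bars of c11, c15 and c22 reach 523, 133 and 220 CPM, against 245 CPM in mock, and Sox11 and Sox9 form visible blocks in c11.

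For the comparison across all genes, 15706 genes passed the filter on low counts, 7 of the 10 SOX genes among them: Sox2, Sox4, Sox5, Sox6, Sox9, Sox11 and Sox12. That filter accepts a gene that is high in a single library, and Sox2 passed it only through c15. In edgeR's quasi-likelihood test 0 of the 7 passed an adjusted p of 0.05, against 0.00637% of all tested genes, which is 1 gene. At an unadjusted p under 0.05 there were 0 of the 7, and DESeq2 called 0 of the 7, against 0.726% of all tested genes. None of the 7 had all 3 knockout libraries above mock, against 21.0% of all tested genes, and none had all 3 below mock, against 22.5%. Without c11, 5 of the 7 had both remaining knockout libraries below mock, Sox4, Sox5, Sox6, Sox11 and Sox12, against 29.6% of all tested genes. Without c15, Sox9 had both remaining libraries above mock, against 34.9% of all tested genes. Sox2 had both below, and since it was tested only through c15, no share is set beside it. For Sox4 and Sox5 these differences were within counting error in at least 1 of the libraries. The median fitted log2 fold change (knockout minus mock) of the 7 was 1.12, against 0.05 over all tested genes, and it rested on c11.

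**Figure D3:**
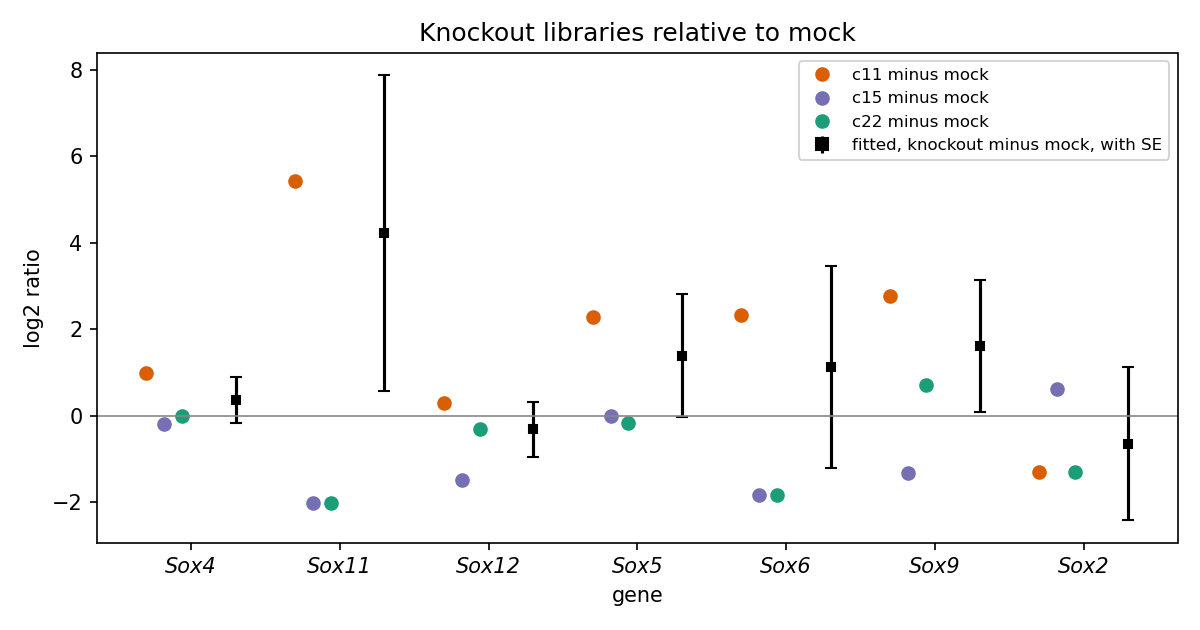
Log2 ratio of each knockout library to mock (CPM with 0.5 added, coloured points) and fitted log2 fold change with its SE (black squares) for the 7 SOX genes tested. For every gene the 3 knockout points lie on both sides of 0, and for Sox11 they run from 5.43 in c11 to -2.02 in c15 and c22. Points at 0 counts, as these 2 of Sox11, depend on the 0.5 CPM added.

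Among the SOXC genes, Sox11 (chromosome 12, 27334264 to 27342574, GRCm38, minus strand) differed most. It encodes a factor of neural and skeletal progenitors. Sox11 had 1128, 0 and 0 counts in c11, c15 and c22, against 19 counts in mock, or 87.4, 0 and 0 CPM against 1.53 CPM. The level in c11 was 56.9 times that in mock (exact 95% counting interval 36.3 to 94.9). Taking 3 counts as the limit in c15 and c22, it was 384-fold higher than in c15 and 381-fold higher than in c22. Against the same limit, Sox11 was 6.75-fold and 6.69-fold lower in c15 and c22 than in mock. These folds leave out the counting error of the 1128 counts in c11 and the 19 counts in mock. The mean was 29.1 ± 50.4 CPM in knockout libraries (SD, n = 3), so the SD exceeded the mean. The fitted log2 fold change was 4.22 (SE 3.65) and rested on c11, since both other knockout libraries had no count. Sox11 made up 20.0% of the SOXC counts in c11 and 0.663% of them in mock.

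Sox4 (chromosome 13, 28948919 to 28953713, minus strand), which supports the survival of progenitors, was read in every library. Its level was 174, 75.7 and 86.8 CPM in c11, c15 and c22, against 87.2 CPM in mock. The interval of mock, 82.1 to 92.6 CPM, overlapped that of c22, 81.8 to 92.0 CPM, and lay above that of c15, 71.1 to 80.6 CPM. The library farthest from mock was c11, at 1.99 times its level (interval 1.85 to 2.14). The knockout mean was 112 ± 53.6 CPM (SD, n = 3), with a fitted log2 fold change of 0.36 (SE 0.53), or -0.08 without c11.

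Sox12 (chromosome 2, 152393611 to 152398063, minus strand), the third SOXC gene and the one with the weakest transactivation in mouse, had 176, 50.7 and 116 CPM in c11, c15 and c22, against 143 CPM in mock. Here c15 stood apart on the lower side, at 0.356 times mock (interval 0.325 to 0.389). The knockout mean was 114 ± 62.5 CPM (SD, n = 3), with a fitted log2 fold change of -0.32 (SE 0.63), or 0.03 without c15. Sox4 and Sox12 thus both had their lowest level in c15 and their highest in c11, with a range among knockout libraries of 1.19 for Sox4 and 1.78 for Sox12 on the log2(CPM + 0.5) scale.

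The SOXE gene Sox9 (chromosome 11, 112782224 to 112787760, plus strand), the master regulator of chondrocytes, had levels of 67.7, 3.49 and 15.7 CPM in c11, c15 and c22, against 9.45 CPM in mock. All 4 libraries were separated by more than counting error: c11 was 7.17 times mock (interval 5.90 to 8.77), c22 1.66 times (1.32 to 2.10) and c15 0.369 times (0.256 to 0.523). Knockout libraries thus lay on both sides of mock, and c11 exceeded c15 by 19.4 times (interval 14.4 to 26.7). The knockout mean was 29.0 ± 34.1 CPM (SD, n = 3), with a fitted log2 fold change of 1.61 (SE 1.52), or 0.05 without c11. The other SOXE genes were near the detection limit. Sox8 had 2, 1 and 3 counts in c11, c15 and c22, against 0 in mock, and its span overlaps the opposite-strand gene Cerox1, with 9, 11 and 3 counts against 19. Sox10 had 0 counts in all knockout libraries, against 2 in mock. No difference in either was detectable at this depth.

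The SOXD genes Sox5 and Sox6, whose long forms lack a transactivation domain of their own and assist Sox9 on cartilage genes, were both high in c11. Sox5 (chromosome 6, 143828425 to 144781977, minus strand) had 126, 21 and 18 counts in c11, c15 and c22, against 20 counts in mock, or 9.76, 1.59 and 1.38 CPM against 1.62 CPM. Outside c11 the libraries lay within counting error of each other, and c11 was 6.04 times mock (interval 3.75 to 10.2). The fitted log2 fold change of Sox5 was 1.38 (SE 1.42), or -0.10 without c11.

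Sox6 (chromosome 7, 115470872 to 116038796, minus strand) had 110, 0 and 0 counts in c11, c15 and c22, against 16 counts in mock. That is 8.52, 0 and 0 CPM in the knockout libraries, against 1.29 CPM in mock. The c11 level was 6.59 times mock (interval 3.89 to 11.9). Against the limit of 3 counts, c15 and c22 were 5.68-fold and 5.63-fold lower than mock. These folds leave out the counting error of the 16 counts in mock. Sox6 thus followed the same order as Sox11, on a lower level. Its fitted log2 fold change was 1.12 (SE 2.34) and, as for Sox11, rested on c11. Antisense and intronic genes within the Sox5 and Sox6 spans had at most 4 counts in a library, Sox6os in c11, below the counts of Sox5 and Sox6 there.

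Sox2 (chromosome 3, 34650405 to 34652461, plus strand), a pluripotency and neural progenitor factor, had a different distribution. It had 0, 18 and 0 counts in c11, c15 and c22, against 9 counts in mock, or 0, 1.36 and 0 CPM against 0.727 CPM. The ratio of c15 to mock was 1.88, with an interval of 0.801 to 4.74 that includes equality. Against the limit of 3 counts, Sox2 was 3.13-fold and 3.17-fold lower in c11 and c22 than in mock. These folds leave out the counting error of the 9 counts in mock, whose interval was 0.332 to 1.38 CPM. The single-exon Sox2 gene lies within the span of Sox2ot on the same strand, which had 0, 1 and 0 counts in c11, c15 and c22 and 0 in mock. The fitted log2 fold change of Sox2 was -0.65 (SE 1.78).

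Sox18 (chromosome 2, 181669836 to 181671640, minus strand), the SOXF factor of vessel and lymphatic development, had 0 counts in every library. Endothelial markers were low too. Of 14 measured, 6 passed the filter and 3 (Tie1, Esam and Robo4) had 0 counts in every library, and their summed level was 22.9, 21.5 and 10.5 CPM in c11, c15 and c22, against 30.0 CPM in mock. Their median log2 fold change over the 6 was -0.67, or -1.21 without c11. Egfl7, a secreted vessel factor gene, had 168, 116 and 91 counts in c11, c15 and c22, against 154 counts in mock, and Erg, an ETS factor gene, had 6.58, 3.41 and 0.535 CPM, against 12.5 CPM. Flt1, a VEGF receptor gene, had 1.32, 6.82 and 1.30 CPM in c11, c15 and c22, against 0.485 CPM in mock, so every knockout library was above mock, whereas Tek, the receptor of angiopoietins, had 5, 21 and 7 counts, against 31 counts. The junction genes Pecam1 and Cdh5, shown as defining markers with their values known, had 0, 3 and 7 and 0, 3 and 2 counts in c11, c15 and c22, against 5 counts each in mock. The other 10 SOX genes of the mouse added little: 9 had at most 3 counts in any library and 5 of these had none. The tenth was Sox13, a SOXD gene singled out after its values were seen, with 0, 8 and 1 counts in c11, c15 and c22, against 18 in mock, so the SOXD genes did not share 1 pattern.

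Set per length of merged exons, the order of levels was led by Sox12 and Sox4 in every library. In c11 they were at 39.4 and 36.2 CPM per kilobase, followed by Sox9 at 16.4, Sox11 at 10.5, Sox5 at 0.679 and Sox6 at 0.574. In c15 Sox4 led with 15.8 CPM per kilobase, ahead of Sox12 at 11.4, and Sox9 followed at 0.843 and Sox2 at 0.663. In c22 Sox12 was at 26.0 and Sox4 at 18.1 CPM per kilobase, with Sox9 at 3.79. In mock the order was Sox12 at 32.0, Sox4 at 18.2, Sox9 at 2.28, Sox2 at 0.353 and Sox11 at 0.185 CPM per kilobase. Sox4 and Sox12 changed places between c15 and the other libraries, and Sox11 stood next to Sox9 in c11 alone.

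The spread among knockout libraries was described over all genes as the range of log2(CPM + 0.5) over c11, c15 and c22. Its median was 0.69 over all 15706 tested genes and 2.45 over the 7 SOX genes. A range of at least 4-fold was found for 4 of the 7, Sox5, Sox6, Sox9 and Sox11, against 7.26% of all tested genes. The same 4 were at least 4-fold higher in c11 than in each of the other libraries, against 0.49% of all tested genes. None of the 7 was at least 4-fold higher in c15, c22 or mock than in each other library, against 0.28%, 0.236% and 0.63% of all tested genes. The library c11 was the highest of the 4 for 6 of the 7, against 26.0% of all tested genes, and c15 was the highest for Sox2, against 25.0%. Since the genes were chosen with these values known, the counts describe them and test nothing. The 4 genes lie on chromosomes 6, 7, 11 and 12.

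**Figure D4:**
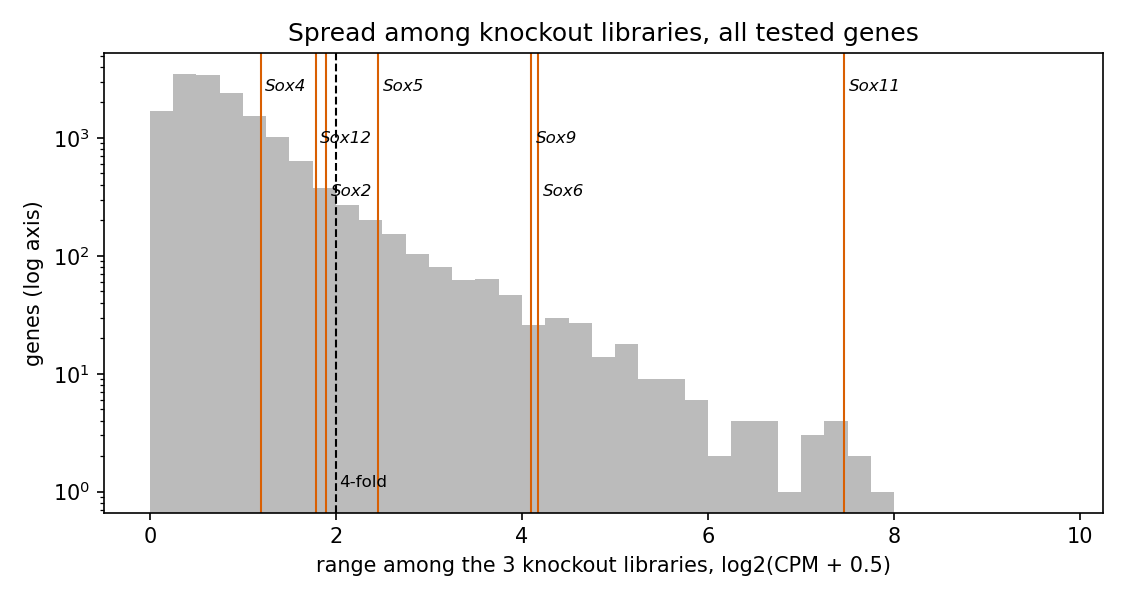
Histogram of the range among the 3 knockout libraries, in log2(CPM + 0.5), over all 15706 tested genes (log count axis), with orange lines at the 7 SOX genes and a dashed line at 4-fold. Sox5, Sox9, Sox6 and Sox11 lie right of the dashed line, with Sox11 at 7.46.

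Genes whose profile over the 4 libraries was most like that of Sox11, Sox9 and Sox12 were found by the smallest root mean square difference of centred log2(CPM + 0.5), among 11315 genes with a mean of at least 5 CPM. For Sox11 they were Ptn, a heparin-binding growth factor gene, Col11a1, a fibrillar collagen gene of cartilage, and Armcx2, with differences of 0.58, 0.72 and 0.74. Ptn had levels of 88.5, 0.455 and 0.459 CPM in c11, c15 and c22, against 5.89 CPM in mock. For Sox9 the nearest were Pcdhb17, Ptprn and Nhsl2, at 0.27, 0.32 and 0.33. For Sox12 they were Fam102a, Mfsd13a and Arl4c, at 0.07, 0.08 and 0.10. With 4 libraries such likeness is a description only.

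Genes of the lineages in which SOX factors act were then examined, from lists of which 0 genes passed edgeR over all genes in either direction (84 genes tested in 14 lists, 19 of them at an unadjusted p under 0.05, against 3.68% of all tested genes and mostly skeletal muscle, erythroid, osteoblast and glial or melanocyte genes, with 0 higher and 1 lower called by DESeq2). Cartilage genes, the lineage of Sox9, Sox5 and Sox6, went both ways. Of 18, 8 were tested, with a median log2 fold change of 0.18, against 0.05 over all tested genes. That median was -0.59 without c11, 0.43 without c15, -1.18 without c22 and -0.46 with limma-voom. Of the 8, 3 had all knockout libraries below mock and 0 above, against 22.5% and 21.0% of all tested genes. In c11 1 of the 8 was highest and in c22 3, against 26.0% and 26.5% of all tested genes. Col2a1, the collagen gene most directly bound by Sox9, was picked out with its values known, with 6, 4 and 9 counts in c11, c15 and c22, against 23 counts in mock. Acan, the aggrecan gene and another Sox9 target picked out in the same way, had 0, 1 and 0 counts, against 0 in mock.

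Single cartilage genes differed widely between libraries. Col11a1 had 512, 2 and 0 counts in c11, c15 and c22, against 4 counts in mock, the same library in which Sox9, Sox5, Sox6 and Sox11 were highest. Col11a2, which encodes a partner chain, was instead highest in c22, with 6.12, 3.11 and 65.9 CPM in c11, c15 and c22, against 14.2 CPM in mock. Hapln1, a cartilage link protein gene, was lowest in c11, at 4.80, 13.5 and 50.1 CPM, against 73.8 CPM in mock. Ihh, the hedgehog ligand of growth plate cartilage, was at 0, 2.43 and 0.229 CPM, against 2.02 CPM in mock.

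Among 16 glial and melanocyte genes, the lineages of Sox10, 8 were tested and 4 had 0 counts in every library, Foxd3, Gjc3, Dct and Tyr. The median log2 fold change was -0.77, or -0.45 without c11 and -2.00 without c15. Of the 8, 5 had all knockout libraries below mock, against 22.5% of all tested genes. Erbb3, a neuregulin receptor gene, had 12, 13 and 9 counts in c11, c15 and c22, against 124 counts in mock (log2 fold change -3.51, SE 0.55, edgeR adjusted p = 0.271), and DESeq2 called it. None of the 7 tested members had all 3 knockout libraries below mock, and among the other SOX genes Sox13, given above, did. Summed skeletal muscle, erythroid and macrophage markers, given above, were also below mock in each knockout library, and their part in this difference was not tested. Egr2, a Schwann cell factor that macrophages also express, was at 2.40, 5.91 and 1.53 CPM, against 13.7 CPM in mock. Mitf, a melanocyte and osteoclast factor, was highest in c11, at 15.6, 3.49 and 8.41 CPM, against 4.12 CPM in mock. Tfap2a, a neural crest factor, had 1, 191 and 0 counts in c11, c15 and c22, against 20 counts in mock. As for Sox2, its counts were in c15 and mock.

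Of 12 pluripotency genes, the setting of Sox2, 3 were tested and 7 had 0 counts in every library. Pou5f1, the usual partner of Sox2, had 0, 0 and 1 counts, against 0 in mock. Klf4, a factor with wide expression outside stem cells, had levels of 35.3, 18.6 and 17.7 CPM in c11, c15 and c22, against 48.0 CPM in mock (log2 fold change -1.01, SE 0.47). Nanog was at 1.63, 2.20 and 3.52 CPM, against 1.86 CPM in mock, and has processed copies in the mouse genome that could share its reads. Tfcp2l1 had 36, 34 and 27 counts in c11, c15 and c22, against 0 in mock, and did not pass (edgeR adjusted p = 0.55).

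Of 8 genes of neuronal progenitors, where SOXC factors and Sox2 act, 4 were tested, with a median log2 fold change of 0.67. That median was 0.08 without c11, 0.29 without c15 and -0.39 with limma-voom. Map2, a microtubule gene, had 80, 1 and 0 counts in c11, c15 and c22, against 7 counts in mock, in the order seen for Sox11. The tubulin gene Tubb3, a known SOXC target, was highest in c15, at 11.5, 30.2 and 5.66 CPM, against 7.35 CPM in mock. Nes, an intermediate filament gene regulated by Sox2 in neural progenitors, was at 8.29, 25.2 and 3.21 CPM, against 26.8 CPM in mock, so like Sox2 it was higher in c15 and mock than in c11 and c22. Tead2, another known SOXC target, was at 280, 184 and 220 CPM, against 194 CPM in mock. Its level was highest in c11, as those of Sox4 and Sox12 were, while c15 and mock lay close together (2428 and 2406 counts).

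**Figure D5:**
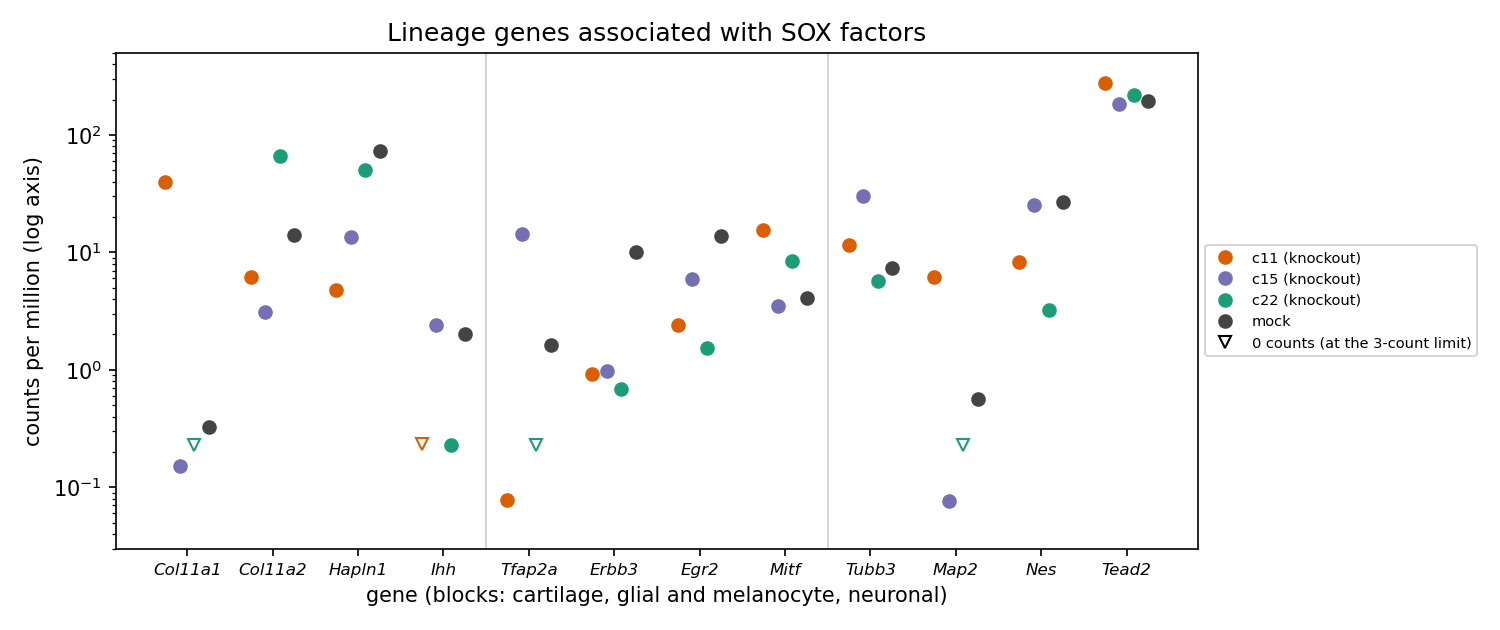
CPM (log axis) of the 12 genes named from the cartilage, glial and melanocyte, and neuronal lists, 1 point per library, with the knockout libraries left of mock. Open triangles mark 0 counts at the limit of 3 counts; Col11a1 and Map2 are highest in c11, Tfap2a and Tubb3 in c15, and Col11a2 in c22.

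No partner or regulator gene of SOX proteins passed the test. Of 15, 13 were tested, with a median log2 fold change of 0.04, or -0.10 without c15, against 0.05 over all tested genes. Ctnnb1, the beta-catenin gene whose product Sox9 binds, had levels of 859, 1156 and 854 CPM in c11, c15 and c22, against 1521 CPM in mock (log2 fold change -0.67, SE 0.30). Mef2c, a partner of Sox18 and a skeletal factor, was at 155, 185 and 93.3 CPM, against 276 CPM in mock (log2 fold change -0.93, SE 0.41). The coactivator gene Crebbp was at 96.1, 71.9 and 116 CPM, against 74.0 CPM in mock.

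Markers of the osteoblast lineage, the counterpart of the Sox9 lineage in bone, had a median log2 fold change of -0.84, and 7 of the 12 had every knockout library below mock and 1 every library above, against 22.5% and 21.0% of all tested genes. The collagen gene Col1a1 had levels of 1913, 1093 and 4700 CPM in c11, c15 and c22, against 862 CPM in mock, and Alpl, the alkaline phosphatase gene, had 32.1, 165 and 31.9 CPM, against 35.0 CPM. Msx2 had 6, 0 and 3 counts, against 71 in mock, and Dmp1 8, 217 and 122 counts, against 935. Fibroblast markers (7 tested) had a median of -0.76, or -0.32 without c11 and -1.47 without c15, and did not share 1 direction in c11. The collagen gene Col3a1 had 976, 137 and 1216 CPM in c11, c15 and c22, against 292 CPM in mock, and the PDGF receptor gene Pdgfra 5.42, 6.97 and 63.8 CPM, against 15.2 CPM. Dcn, the decorin gene, had 6.35, 30.8 and 11.9 CPM in c11, c15 and c22, against 45.1 CPM in mock, and Cd34 4.42, 19.2 and 7.34 CPM, against 27.8 CPM.

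Medians of host markers were -3.54 for skeletal muscle (-8.26 without c22), -2.89 for erythroid cells (-5.30 without c22) and -0.68 for macrophages. The myosin heavy chain genes Myh1 and Myh4, which are close paralogs, had 0, 0 and 2 counts and 0, 0 and 66 counts in c11, c15 and c22, against 55 and 388 counts in mock. The contractile genes Myl1 and Tnnc2 had 17, 1 and 38 counts and 8, 4 and 44 counts, against 65 and 76. All 4 muscle genes were thus highest in mock and next highest in c22. The globin genes Hba-a1, Hbb-bs and Hbb-bt, which have near-identical copies, had 1, 20 and 148, 9, 27 and 314, and 0, 4 and 24 counts in c11, c15 and c22, against 570, 644 and 83 in mock, and Alas2, a heme synthesis gene, had 11, 5 and 8, against 46. Of the macrophage genes, Lyz2, the lysozyme gene, had 142, 188 and 266 CPM in c11, c15 and c22, against 554 CPM in mock, and Cd14 3.95, 10.2 and 8.56 CPM, against 16.6 CPM. Csf1r, the receptor gene of the lineage, had 24.6, 35.4 and 32.9 CPM, against 47.6 CPM in mock, and Cd68 23.2, 19.3 and 26.5 CPM, against 26.1 CPM. Adipocyte markers, 4 genes, summed to 0.775, 0.152 and 0.459 CPM, against 1.05 CPM in mock, and 7 skin epithelium markers to 3.18, 3.79 and 3.06 CPM, against 3.39 CPM, nearly all from the keratin gene Krt10. None of the cell type marker lists had its highest summed level in c11. Fibroblast markers summed to 1006, 249 and 1321 CPM in c11, c15 and c22, against 429 CPM in mock. Among the lineage lists, neuronal genes had their highest sum in c11, at 306, 240 and 229 CPM, against 229 CPM in mock. Tead2 alone made up 280, 184 and 220 CPM of these sums in c11, c15 and c22, against 194 CPM in mock. The highest sum in c11 rested on it. Of the other neuronal genes tested, Map2 was highest in c11, Tubb3 in c15 and Nes in mock. The part of host cells in the SOX levels was not tested.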

How the data were processed

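The authors deposited a table of unnormalized read counts for Ensembl genes, with a column for each library. Libraries were made by poly(A) selection and a strand-preserving (directional) kit, as the labels' protocols state. The submitters' processing notes name the aligner HISAT2 2.1.0 and the counter featureCounts 1.6.3 with GRCm38, beside Trimmomatic 0.38, FastQC 0.11.7 and SAMtools 1.9. Their settings, including strand and reads with several matches, are not given in the sources used here, so antisense and overlapping genes may share reads.

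CPM is the count per 1000000 counts of the column, and exon lengths are from GENCODE M21. Genes passing filterByExpr (15706 of 55487, holding 99.9% of counts) were scaled by TMM and tested, knockout against mock, with the quasi-likelihood test of edgeR 4.0.16 (robust, bias-adjusted deviances, 2-sided) in R 4.3.3, with Benjamini-Hochberg adjustment at 0.05. Mock, a lone library, was taken to share the spread of the knockout libraries, with 2 residual degrees of freedom, a prior of 3.77 and a biological coefficient of variation of 0.442. SEs come from the F statistic. Alternatives were DESeq2 1.42.0, limma 3.58.1 (voom), other scalings and filters, and leaving out each knockout library. Intervals are exact binomial at 95% and cover counting error only. The p-values reflect only the spread among the knockout libraries, in which differences of line, tumour, host cells and technique cannot be told apart. No library was a copy of another (mean chi-square of a gene between pairs, 52.3 to 97.9). The fit was tested on simulated data. The members, lists and rules were chosen with earlier results of these data known.

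Genes named were all members, per list the 2 highest and 2 lowest log2 fold changes among genes averaging 1 CPM or more, the nearest profiles of 3 members, and genes overlapping a member. Where several IDs shared a symbol, that with the highest total was used. One gene that this rule names is not reported here. Pecam1, Cdh5, Col2a1, Acan, Pou5f1 and Sox13 were added with their values known.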

Additional observations from a re-analysis of the deposited data

How the results depend on the processing

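No paired analysis was possible because there was 1 mock library and the columns carry no replicate number shared between groups. Across all genes, 0 were called higher and 1 lower with edgeR. DESeq2 called 48 higher and 66 lower, no filter gave 4 lower, and limma-voom and edgeR's older quasi-likelihood fit, an alternative chosen after seeing the data, gave 0 lower. Leaving out 1 knockout library gave 0 genes lower each time. No SOX gene was called in any of these fits. The number of the 7 tested SOX genes with all knockout libraries below mock, 0 with all libraries, was 0 to 5 when 1 was left out (5 without c11, 1 without c15), and the number above mock was 0 to 1 (1 without c15). TMM library sizes changed neither. The SD among knockout libraries, in log2(CPM + 0.5), was wide, from 0.64 for Sox4 to 4.31 for Sox11. A move within it therefore does not show a stable value, and Sox9 went from 1.61 to 0.05 without c11 within its SD. Of 68 alternative log2 fold changes of SOX genes, 62 moved by less than that SD, 2 of them with a change of sign. The others were limma-voom for Sox2 (-2.57), Sox6 (-2.52) and Sox11 (-1.64), and leaving out c11 for Sox5 (-0.10), Sox6 (-7.06) and Sox11 (-7.30), where the last 2 are fits to 0 counts and no measure of size. All 21 ratios to mock moved by less than that SD with 2 CPM added in place of 0.5. Ratios at 0 counts nonetheless depended on the value added. In c15 and c22 they went from -2.02 to -0.82 for Sox11 and from -1.84 to -0.72 for Sox6. For Sox2 in c11 and c22 they went from -1.29 to -0.45. With no filter, the median log2 fold change of all genes was 0.11, against 0.05. Among lists, 18 of 129 medians moved by more than the SD among library medians, and the cause was not tested. A single mock library and counts under 20 for Sox2, Sox6 and Sox11 in mock limit what can be said of a knockout effect.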
